A study of Mus musculus with 8 samples.

Results

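The genes followed here are 42 genes of the TCA cycle, pyruvate and fatty acid oxidation among the 49492 gene symbols of the table. They were chosen by name for their place in these pathways, not by a cutoff on measured values, though with earlier results of these data known. All 42 were found, and 41 of them reached a value of 1 in 2 samples or more and were tested together with the rest of the 16232 genes that did. RNA-seq was performed in mouse embryonic fibroblasts (MEFs), connective tissue cells grown from embryos, in 4 groups of 2 samples. The cells carried Pontin WT, or Pontin RA, a form of this chromatin-remodeling factor in which the arginines methylated by the enzyme CARM1 are replaced by alanine, and were kept in normal medium (unstarved) or under glucose starvation. In all 4 groups the MEFs came from mice with floxed Pontin, whose endogenous copy is removed by Cre, and Pontin was supplied from a lentivirus with a Flag tag. Each Pontin form was carried by stably selected cells, and the number of separate lines per form is not given. The line and the Pontin form therefore cannot be told apart. The starvation medium was free of glucose and held dialyzed serum. How long the cells for RNA-seq were starved is not given in the sources used here. The table marks the media only as minus and plus, and the direction of every starvation result rests on taking plus as starved, the way the study marks its conditions.

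Pyruvate from glycolysis enters mitochondria and is turned into acetyl-CoA by the pyruvate dehydrogenase complex, which the pyruvate dehydrogenase kinases (PDKs) switch off by phosphorylation. Fatty acids reach the same acetyl-CoA through the carnitine shuttle and repeated rounds of beta-oxidation, and citrate synthase then feeds acetyl-CoA into the TCA cycle. When glucose runs short, many cells spare pyruvate and burn fatty acids or amino acids, and in muscle and liver fasting is known to raise Pdk4 through FOXO and PPAR factors.

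Values are CPM, a gene's reads scaled to a common library total, with a library size that the authors adjusted for each sample. The samples held 43205841 to 56363034 reads, and 3 reads, the smallest count told from 0 here, correspond to a value of 0.0548 to 0.0690. Ruvbl1, the gene of Pontin, stood at 28.4 and 27.6 in unstarved WT, 27.9 and 28.4 in starved WT, 36.8 and 32.0 in unstarved RA and 45.0 and 42.9 in starved RA. RA was above WT in both media (log2 difference 0.29, limma adjusted p = 0.00946 in normal medium, and 0.62, limma adjusted p = 2.94e-07 under starvation), and the part of this level in the differences between genotypes was not tested. These values do not separate the forms of Pontin, so the labels could not be checked by sequence. Of the 10 fibroblast markers, 9 were present, while Lum stayed at 0.363 or below. Summed over that list, values ran from 10007 to 10087 in unstarved WT, 5313 to 5406 in starved WT, 9918 to 10246 in unstarved RA and 7042 to 7059 in starved RA. The sum fell with starvation in both genotypes. It overlapped between the genotypes in normal medium and differed between them under starvation. Not every marker followed the sum, since Dcn was called higher under starvation in both genotypes and Fn1 in RA. The part of these markers in the results below was not tested. In bulk samples fewer cells of a type and less RNA per cell cannot be told apart. Markers of adipocytes and muscle were at or near 0 in every sample, with sums of at most 0.138. The immune sum was 4.18 to 4.59 in starved WT and 1.98 to 2.83 in the other groups, nearly all of it Cd68, and the defining markers Ptprc and Cd3e did not exceed 0.0392. The endothelial sum was 2.28 to 3.09 in unstarved WT, 6.37 to 6.60 in starved WT, 1.90 to 3.06 in unstarved RA and 5.45 to 5.86 in starved RA, with Kdr its highest gene and Pecam1 and Cdh5 at 0.478 or below. The epithelial sum, most of it Krt19, was 83.1 to 89.7, 37.2 to 38.7, 89.3 to 101 and 64.7 to 68.2 in the same order, with Epcam at 0.174 or below. Cdh1, of the same list, went the other way in RA, from 0.322 and 0.155 unstarved to 1.18 and 1.16 starved, with no call in WT. The endothelial and epithelial sums moved with starvation in both genotypes and the immune sum only in WT. The part of these sums in the results was not tested. The labels do not say that replicates were separate cultures, so p-values measure only the spread between these samples.

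Glucose starvation changed most of these genes in both genotypes, and it did not move the pathway as a whole in one direction. In WT, 32 of 41 members passed the test, 12 higher and 20 lower, beside 78.6% of all tested genes (39.3% higher and 39.2% lower). In RA, 29 members passed, 7 higher and 22 lower, beside 68.7% of all genes (35% higher and 33.7% lower). Counted in either direction, the members' share (78.0% in WT and 70.7% in RA) was close to that of all genes. By direction it was not, since more members fell than rose, while all genes split about evenly. The members' median log2 change came to -0.10 for WT and -0.16 for RA, against 0.00 and 0.01 over all genes tested. A gene passed when its limma adjusted p, corrected over all genes of the contrast, was under 0.05, and every log2 change is on the log2(value + 1) scale, on which low genes appear to change less than they did. Between the genotypes, 7 members rose in both, 18 fell in both, and none moved in opposite directions in both tests. A further 7 passed only in WT's test and 4 only in RA's, which by itself does not show that the responses differ. At 2-fold or more on the log2 scale, 1 member rose (Pdk1) and 5 fell (Acadm, Idh1, Pdk4, Acaa2 and Ogdh) in WT, beside 19.6% of all genes, and in RA 1 rose (Pdk1) and 1 fell (Idh1), beside 9.03%. Passing the test in neither were 5 members, Idh3g, Etfa, Etfdh, Decr1 and Ppargc1a.

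**Figure D1:**
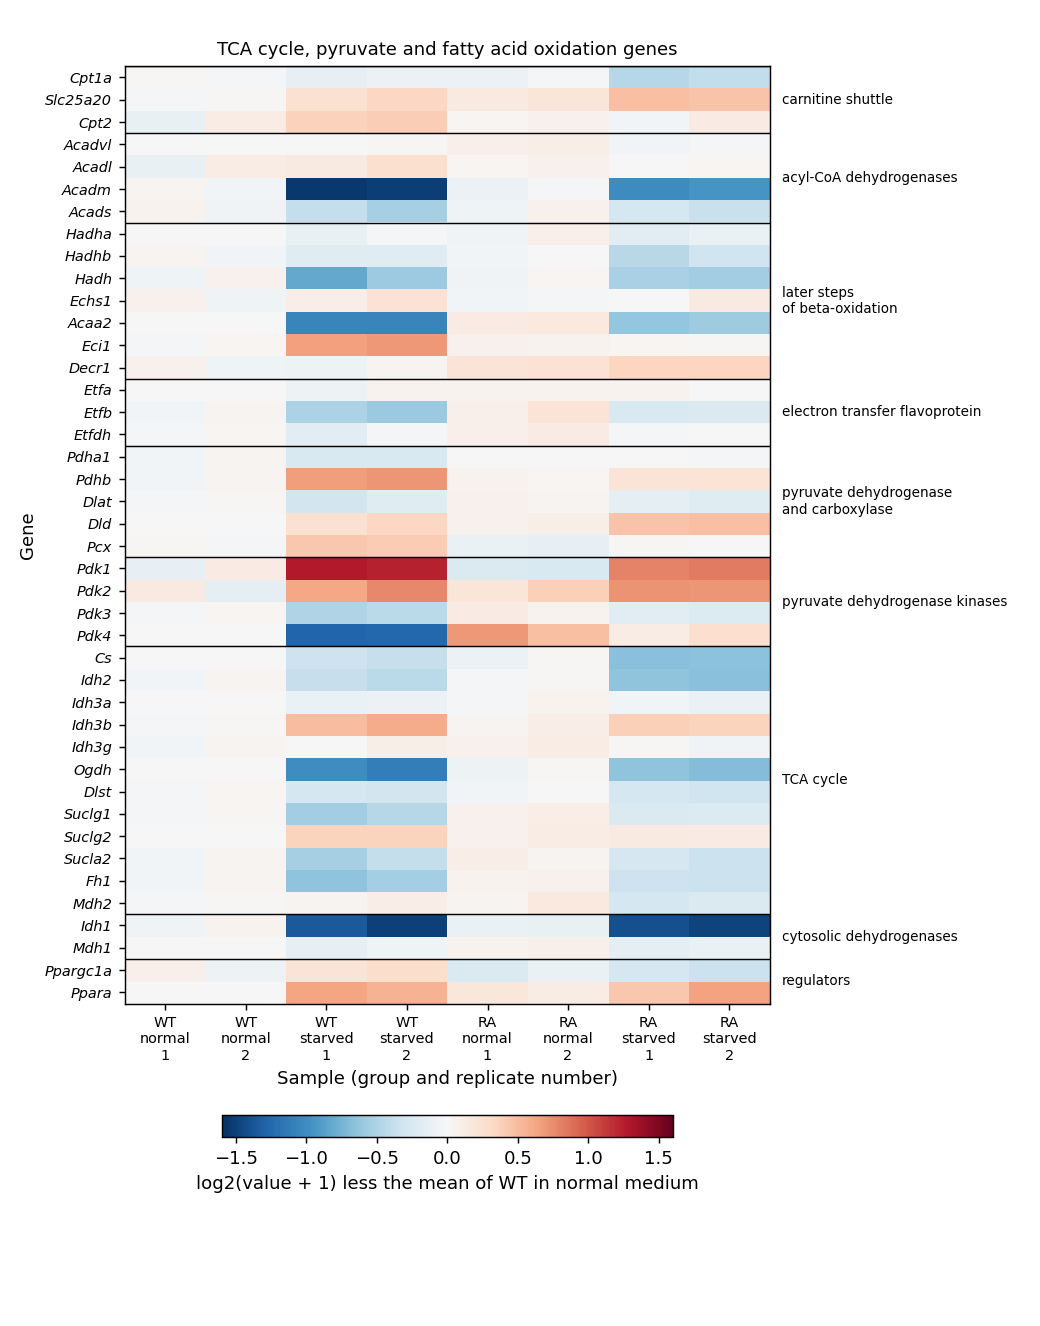
Heat map of the 42 genes (rows, grouped by role) in the 8 samples (columns). Color is log2(value + 1) less the mean of WT in normal medium, on a scale capped at 1.6; the starved samples show Pdk1 as the strongest rise and Acadm and Idh1 as the strongest falls, with Acadm paler in RA and Pdk4 of starved RA above its level in unstarved WT.

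The sequences ahead of the start sites are shown for 4 genes that lie at the ends of the comparisons below: Pdk1 and Acadm, which moved furthest up and down in WT, Pdk4, which differed most between the starved genotypes, and Eci1, whose response differed most toward lower values in RA. Each is the 250 bases before the RefSeq start site in GRCm38.p6, read 5′ to 3′ on the gene's own strand, at chr2:71872974-71873223 (plus strand) for Pdk1, chr6:5496279-5496528 (minus) for Pdk4, chr17:24426433-24426682 (plus) for Eci1 and chr3:153944644-153944893 (minus) for Acadm. Pdk1 has 2 annotated starts, of which the upstream one is used. Capitals mark CCAAT boxes on either strand.
Pdk1: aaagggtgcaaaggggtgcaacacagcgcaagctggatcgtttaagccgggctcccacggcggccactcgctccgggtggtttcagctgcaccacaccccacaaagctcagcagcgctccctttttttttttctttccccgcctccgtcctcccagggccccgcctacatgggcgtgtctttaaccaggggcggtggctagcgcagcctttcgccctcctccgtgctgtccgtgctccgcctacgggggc
Pdk4: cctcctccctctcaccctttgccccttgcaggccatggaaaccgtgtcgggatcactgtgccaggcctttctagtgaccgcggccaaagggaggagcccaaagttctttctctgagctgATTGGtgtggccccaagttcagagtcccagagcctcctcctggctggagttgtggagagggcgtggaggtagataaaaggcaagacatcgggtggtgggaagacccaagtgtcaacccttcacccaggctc
Eci1: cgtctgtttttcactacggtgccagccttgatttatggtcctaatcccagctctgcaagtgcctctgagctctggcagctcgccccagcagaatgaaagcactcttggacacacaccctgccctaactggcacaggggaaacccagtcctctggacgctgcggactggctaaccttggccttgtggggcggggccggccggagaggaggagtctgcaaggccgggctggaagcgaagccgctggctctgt
Acadm: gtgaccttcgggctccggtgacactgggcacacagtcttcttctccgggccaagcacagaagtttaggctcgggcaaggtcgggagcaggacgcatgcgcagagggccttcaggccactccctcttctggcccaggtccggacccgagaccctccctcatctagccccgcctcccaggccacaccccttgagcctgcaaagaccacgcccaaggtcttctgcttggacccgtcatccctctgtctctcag

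Among these stretches only that of Pdk4 holds a CCAAT box, on the reverse strand, its first base 131 bases before the start. The windows of 39 members (48 windows of 300 bases, 250 before to 50 after the start) were searched on both strands for 4 motifs, none of which contains another. GTAAACA, the core that FOXO factors bind, was in 0 of the 48 windows and in 3.65% of all 32851 windows of the same length. TCACGTGA, the CLEAR-type box bound by TFEB, was in 0 of 48 and in 0.974% of all windows. TCAAGGTCA, the element of estrogen-related receptors, was in 0 of 48 and in 0.423% of all windows. CCAAT was in 25 of the 48 windows (52.1%), belonging to 19 members, and in 37.4% of all windows. These are counts of letters in short windows, and nothing about binding can be read from them.

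The 4 PDKs, which phosphorylate and silence pyruvate dehydrogenase, split into a pair that rose and a pair that fell. Pdk1, the isoform best known as a target of the hypoxia factor HIF, read 20.0 and 23.9 in unstarved WT, against 54.3 and 52.5 in starved WT. In RA it read 18.5 and 18.3 in normal medium and 38.8 and 39.6 under starvation. Starved samples were higher than those in normal medium in both genotypes without overlap, and starved RA lay below starved WT. The mean rose 2.43-fold in WT (log2 change 1.25 ± 0.0709 SE, limma adjusted p = 3.81e-11) and 2.13-fold in RA (1.05 ± 0.0709, limma adjusted p = 7.95e-10). The difference between these responses was -0.20 (95% interval -0.41 to 0.01, limma adjusted p = 0.106).

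Pdk2, an isoform found in most tissues, was low, at 1.35 and 0.927 in unstarved WT, 2.26 and 2.63 in starved WT, 1.43 and 1.78 in unstarved RA and 2.51 and 2.48 in starved RA. All 4 starved samples were above all 4 in normal medium. Its log2 change was 0.69 ± 0.139 in WT (limma adjusted p = 2.24e-04) and 0.43 ± 0.139 in RA (limma adjusted p = 0.0120). The RA call was lost without RA normal replicate 1 (limma adjusted p = 0.0991) or with no filter on low values (0.0674). The responses differed by -0.27 (95% interval -0.68 to 0.15, limma adjusted p = 0.274).

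Pdk3 read 40.2 and 41.8 in unstarved WT, 29.0 and 30.1 in starved WT, 45.0 and 42.6 in unstarved RA and 36.4 and 35.0 in starved RA. Both genotypes fell without overlap, and starved RA was above starved WT. The log2 change was -0.46 ± 0.0549 in WT (limma adjusted p = 7.63e-07) and -0.29 ± 0.0549 in RA (limma adjusted p = 1.85e-04), a difference of 0.17 (95% interval 0.01 to 0.33) that did not pass after adjustment (limma adjusted p = 0.0793).

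Pdk4, the isoform that fasting raises in muscle and liver, fell here. Its values were 7.44 and 7.34 in unstarved WT, 2.47 and 2.52 in starved WT, 12.6 and 10.7 in unstarved RA and 8.07 and 9.13 in starved RA. The lowest RA sample was above the highest WT sample. The mean was 2.96-fold lower in starved WT (log2 change -1.26 ± 0.109, limma adjusted p = 1.10e-08) and 1.35-fold lower in starved RA (-0.40 ± 0.109, limma adjusted p = 0.00391). The RA call was lost without RA normal replicate 1 (limma adjusted p = 0.0648) or RA starved replicate 1 (0.0533). The RA response was higher than that in WT by 0.87 ± 0.154 on the log2 scale (limma adjusted p = 1.84e-04).

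To compare genes, values were divided by the length of all annotated exons, 7779 bases for Pdk1 and 2561 for Pdk3. The lengths of the transcripts expressed here are not known. Per kilobase, Pdk3 was the highest PDK in every group. It stood at 16.0 in unstarved WT, 11.5 in starved WT, 17.1 in unstarved RA and 13.9 in starved RA. Pdk1 followed in the starved groups, at 6.86 per kb in WT and 5.04 per kb in RA. This order depends on the division by length. Undivided, the starved mean of Pdk1 was above that of Pdk3, at 53.4 against 29.6 in WT and 39.2 against 35.7 in RA. Pdk2 and Pdk4 stood at 0.774 and 0.711 per kb in starved WT, where their samples overlapped, and at 0.788 and 2.45 per kb in starved RA.

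**Figure D2:**
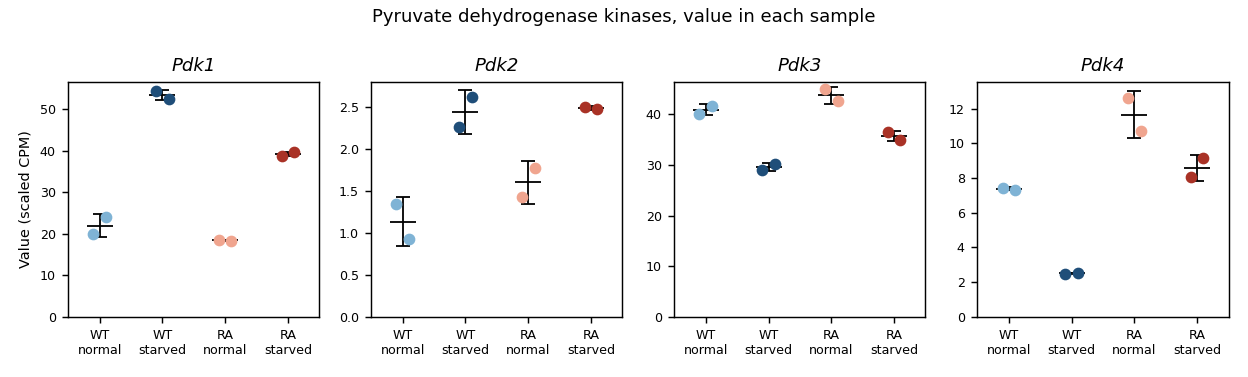
Value (CPM of a scaled library size, axis from 0) of the 4 PDK genes in each sample by group; points are samples, the horizontal mark is the mean and the bar is the SD (n = 2). Pdk1 and Pdk2 are higher and Pdk3 and Pdk4 lower under starvation, and every RA sample of Pdk4 is above every WT sample.

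The genes of pyruvate dehydrogenase itself did not move together. Pdha1, the alpha subunit of the E1 enzyme that decarboxylates pyruvate, read 162 and 172 in unstarved WT, 141 and 141 in starved WT, 167 and 166 in unstarved RA and 168 and 165 in starved RA. It fell in WT (log2 change -0.24 ± 0.0391, limma adjusted p = 2.47e-05), was at 0.00 in RA (95% interval -0.08 to 0.09, limma adjusted p = 0.920), and the responses differed by 0.25 ± 0.0554 (limma adjusted p = 0.00139). Of the exon bases of Pdha1, 16.1% lie opposite Map3k15, so without known strand handling reads of the pair could be mixed. Its partner Pdhb, the beta subunit of E1, rose, from 70.9 and 74.8 to 116 and 119 in WT and from 75.7 and 74.5 to 84.0 and 84.6 in RA. Starved WT was above every other sample. The log2 change was 0.68 ± 0.0423 in WT (limma adjusted p = 1.30e-10) and 0.17 ± 0.0423 in RA (limma adjusted p = 0.00235), with a difference of -0.52 ± 0.0598 (limma adjusted p = 2.17e-06). Dlat, the E2 acetyltransferase core, fell in both genotypes, from 72.6 and 74.8 to 60.2 and 64.5 in WT and from 77.1 and 76.0 to 65.9 and 64.5 in RA. Dld, the E3 subunit that the complex shares with 2-oxoglutarate dehydrogenase, rose from 96.4 and 98.1 to 115 and 123 in WT and from 102 and 104 to 134 and 137 in RA. Its log2 change was 0.29 ± 0.0414 in WT (limma adjusted p = 6.93e-06) and 0.38 ± 0.0414 in RA (limma adjusted p = 3.25e-07).

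Pcx, pyruvate carboxylase, which refills the cycle with oxaloacetate, read 73.1 and 71.5 in unstarved WT, 97.7 and 96.1 in starved WT, 67.1 and 65.9 in unstarved RA and 73.3 and 71.8 in starved RA. Starved WT stood above all other samples. The rise was 0.42 ± 0.0417 on the log2 scale in WT (limma adjusted p = 7.44e-08) and 0.12 ± 0.0417 in RA (limma adjusted p = 0.0146), and the responses differed by -0.29 ± 0.0589 (limma adjusted p = 5.49e-04). The call in RA was lost without RA normal replicate 2 (limma adjusted p = 0.0588) or RA starved replicate 1 (0.0989).

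The carnitine shuttle carries long-chain fatty acids into mitochondria. Cpt1a, its first and rate-limiting enzyme, read 40.0 and 39.2 in unstarved WT, 36.0 and 37.0 in starved WT, 37.2 and 38.8 in unstarved RA and 28.6 and 29.9 in starved RA, where both samples were below all the others. The log2 change was -0.11 in WT (95% interval -0.23 to 0.00, limma adjusted p = 0.0633) and -0.37 ± 0.0540 in RA (limma adjusted p = 1.29e-05). The responses differed by -0.25 ± 0.0764 (limma adjusted p = 0.0113), a call lost without RA starved replicate 1 (0.0528) and, at -0.18, when values were scaled to total reads (0.0582). Slc25a20, the carnitine-acylcarnitine carrier, rose in both, from 15.2 and 15.7 to 18.6 and 19.7 in WT and from 17.1 and 17.9 to 22.0 and 21.5 in RA. Cpt2, which hands the fatty acid back to CoA inside the mitochondrion, read 17.3 and 20.6 in unstarved WT, 24.8 and 25.0 in starved WT, 19.4 and 19.9 in unstarved RA and 18.3 and 20.7 in starved RA. Starved WT was above the other samples, and the starved RA samples spanned those in normal medium. Cpt2 rose in WT by 0.38 ± 0.0831 (limma adjusted p = 4.93e-04), its change in RA was -0.01 (95% interval -0.19 to 0.16), and the responses differed by -0.39 ± 0.118 (limma adjusted p = 0.0103). That difference was lost without WT normal replicate 1 (limma adjusted p = 0.0695) or RA starved replicate 1 (0.0629), and with no filter on low values (0.0554).

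The acyl-CoA dehydrogenases open each round of beta-oxidation and differ in the chain length they take. Acadm, the medium-chain enzyme, had the largest fall of the 41 members in WT. It read 33.9 and 31.7 in unstarved WT, 10.6 and 10.9 in starved WT, 30.6 and 32.0 in unstarved RA and 15.8 and 16.5 in starved RA. The samples in normal medium overlapped between genotypes, and starved RA lay above starved WT. The mean was 3.06-fold lower in starved WT (log2 change -1.53 ± 0.0685, limma adjusted p = 1.51e-12) and 1.94-fold lower in starved RA (-0.91 ± 0.0685, limma adjusted p = 3.12e-09), and the responses differed by 0.61 ± 0.0969 (limma adjusted p = 5.99e-05). Acads, the short-chain enzyme, also fell in both, from 29.4 and 27.0 to 21.4 and 19.2 in WT and from 26.7 and 29.7 to 22.9 and 21.8 in RA. The long-chain enzymes moved little: Acadl read 37.4 and 44.6, then 45.3 and 48.8 in starved WT, a rise whose call was lost without WT normal replicate 1 (limma adjusted p = 0.326) or WT starved replicate 2 (0.123), and 40.9 to 43.1 over the 4 RA samples. The WT call of Acadl was also lost with no filter (limma adjusted p = 0.0711) and when values were scaled to total reads (0.0882). Acadvl, the very long-chain enzyme, stayed between 64.1 and 65.3 in the WT samples and went from 68.0 and 69.4 to 62.4 and 63.5 in RA, where the call was lost without RA normal replicate 2 (limma adjusted p = 0.0702) or RA starved replicate 1 (0.0981). For Acadvl, 42.9% of the exon bases lie opposite Dvl2, so its reads are uncertain.

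In WT, 2 of the 7 enzymes of the later steps of beta-oxidation rose and 3 fell (71.4% called), and in RA 0 rose and 4 fell (57.1%), beside 78.6% and 68.7% of all genes. Acaa2, the medium-chain thiolase that releases acetyl-CoA, read 27.2 and 26.8 in unstarved WT, 12.4 and 12.4 in starved WT, 29.6 and 30.2 in unstarved RA and 17.2 and 17.9 in starved RA. The groups did not overlap. Its log2 change was -1.06 ± 0.0656 in WT (limma adjusted p = 1.25e-10) and -0.73 ± 0.0656 in RA (limma adjusted p = 3.06e-08), and the responses differed by 0.33 ± 0.0928 (limma adjusted p = 0.00767). Hadh, the 3-hydroxyacyl-CoA dehydrogenase for shorter chains, fell from 43.3 and 47.5 to 25.2 and 29.9 in WT and from 43.7 and 46.2 to 31.3 and 30.6 in RA. Eci1, an isomerase needed for unsaturated fatty acids, did the reverse in WT: it read 22.7 and 23.6 in normal medium and 37.2 and 37.9 under starvation, while RA read 24.3 and 24.0 in normal medium and 23.7 and 23.5 under starvation. Only starved WT stood apart. Eci1 rose by 0.68 ± 0.0590 in WT (limma adjusted p = 1.30e-08), its change in RA was -0.03 (95% interval -0.16 to 0.09), and the difference of -0.71 ± 0.0834 (limma adjusted p = 2.66e-06) was the lowest among the members.

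Hadha and Hadhb, the subunits of the trifunctional protein that takes long chains through the later steps, moved by less. Hadhb fell from 49.5 and 46.5 to 41.7 and 41.7 in WT, a call lost without WT normal replicate 1 (limma adjusted p = 0.0570), and from 46.4 and 48.4 to 34.9 and 38.1 in RA. Hadha read 90.3 and 89.9 and then 83.2 and 87.8 in WT, with no call, and fell from 86.6 and 95.2 to 79.1 and 83.7 in RA, a call lost without RA normal replicate 2 (limma adjusted p = 0.143) or RA starved replicate 1 (0.118). Echs1, the short-chain enoyl-CoA hydratase, rose in WT from 28.0 and 25.5 to 28.8 and 31.6, a call lost without WT normal replicate 2 (limma adjusted p = 0.276) or WT starved replicate 2 (0.279), and read 25.8 to 29.7 in RA. The WT call of Echs1 was also lost with no filter (limma adjusted p = 0.0976), total-read scaling (0.213) or DESeq2 (DESeq2 adjusted p = 0.0723). Decr1, the 2,4-dienoyl-CoA reductase, passed in neither genotype and read 23.4 to 26.0 over the WT samples and 28.7 to 31.7 over the RA samples.

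Electrons from the acyl-CoA dehydrogenases pass to the electron transfer flavoprotein. Its beta subunit Etfb fell from 37.7 and 40.2 to 27.2 and 25.4 in WT and from 41.4 and 45.6 to 32.8 and 33.2 in RA, whereas the alpha subunit Etfa read 77.7 to 85.4 in WT and 82.8 to 86.1 in RA with no call. Etfdh, the oxidoreductase that passes the electrons on to ubiquinone, read 44.1 to 51.4 in WT and 49.3 to 55.1 in RA with no call. Of the exon bases of Etfb, 53.0% are shared with Gm45233 on the same strand, so reads could be divided between them.

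Of the 12 TCA cycle genes, 2 rose and 8 fell in WT (83.3% called, beside 78.6% of all genes), and 1 rose and 8 fell in RA (75.0%, beside 68.7%). Cs, citrate synthase, which starts the cycle, read 330 and 336 in unstarved WT, 265 and 258 in starved WT, 311 and 336 in unstarved RA and 208 and 210 in starved RA. Starved RA was the lowest group. The log2 change was -0.35 ± 0.0405 in WT (limma adjusted p = 5.71e-07) and -0.63 ± 0.0405 in RA (limma adjusted p = 4.53e-10), and the responses differed by -0.28 ± 0.0573 (limma adjusted p = 6.71e-04). Idh2, the mitochondrial NADP-dependent isocitrate dehydrogenase, followed the same course, from 93.4 and 99.1 to 74.2 and 71.2 in WT and from 95.4 and 97.3 to 61.4 and 60.3 in RA, with a difference between responses of -0.25 (limma adjusted p = 0.00290).

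Ogdh, the E1 subunit of 2-oxoglutarate dehydrogenase, had the largest fall of the cycle in WT, from 131 and 131 to 65.3 and 60.3. In RA it went from 124 and 133 to 83.5 and 80.4, so starved RA was between starved WT and normal medium. The log2 change was -1.05 ± 0.0476 in WT (limma adjusted p = 1.76e-12) and -0.64 ± 0.0476 in RA (limma adjusted p = 2.75e-09), and the responses differed by 0.41 ± 0.0673 (limma adjusted p = 9.12e-05). Dlst, the E2 subunit of the same complex, fell in both genotypes, from 172 and 179 to 144 and 143 in WT and from 170 and 175 to 144 and 141 in RA.

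Succinyl-CoA synthetase pairs a common alpha subunit with an ATP- or GTP-forming beta subunit. Suclg1, the alpha subunit, fell from 69.7 and 71.4 to 47.6 and 51.0 in WT and from 74.1 and 75.8 to 60.1 and 60.5 in RA, and Sucla2, the ATP-forming beta subunit, fell from 88.1 and 92.9 to 62.4 and 69.2 in WT and from 97.2 and 93.2 to 74.8 and 70.8 in RA. Suclg2, the GTP-forming beta subunit, rose in WT from 88.0 and 88.9 to 113 and 114 (log2 change 0.35 ± 0.0393, limma adjusted p = 2.91e-07). In RA it read 93.0 and 96.0 in normal medium and 97.5 and 96.6 under starvation (0.04, 95% interval -0.04 to 0.12). The responses of Suclg2 differed by -0.32 ± 0.0555 (limma adjusted p = 1.67e-04).

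The isocitrate dehydrogenase 3 subunits also parted. Idh3b, a regulatory subunit, rose from 92.4 and 95.3 to 133 and 142 in WT and from 96.7 and 101 to 123 and 120 in RA, with responses differing by -0.25 (limma adjusted p = 0.00270). Idh3a, the catalytic subunit, read 125 and 125 and then 116 and 117 in WT, a log2 change of -0.10 whose call was lost without either WT normal replicate (limma adjusted p = 0.0938 without replicate 1 and 0.0939 without replicate 2), WT starved replicate 1 (0.0907) or WT starved replicate 2 (0.0642). With no filter the WT call of Idh3a was lost too (limma adjusted p = 0.0507). In RA it read 124 and 131 and then 121 and 117, and was not called. Idh3g, the other regulatory subunit, read 53.5 to 60.9 over all 8 samples. Fh1, fumarase, fell from 49.3 and 52.3 to 32.2 and 34.6 in WT and from 53.0 and 53.6 to 40.0 and 40.0 in RA. Mdh2, the mitochondrial malate dehydrogenase, read 278 and 286 in unstarved WT, 291 and 304 in starved WT, 291 and 315 in unstarved RA and 232 and 239 in starved RA. Its change in WT was 0.08 (95% interval -0.01 to 0.17, limma adjusted p = 0.107), it fell in RA (-0.36 ± 0.0427, limma adjusted p = 9.93e-07), and the responses differed by -0.44 ± 0.0605 (limma adjusted p = 1.47e-05).

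**Figure D3:**
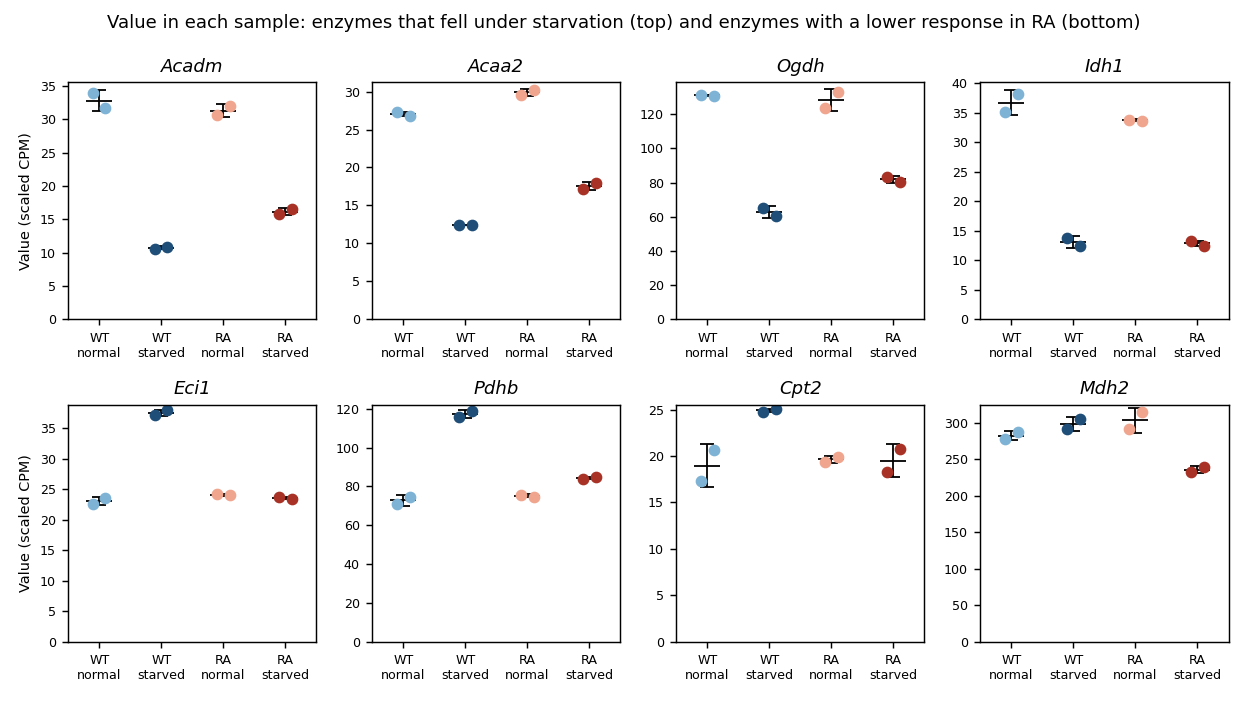
Value (CPM of a scaled library size, axis from 0) of 8 enzymes in each sample by group; points are samples, the horizontal mark is the mean and the bar is the SD (n = 2). Acadm, Acaa2, Ogdh and Idh1 fall in both genotypes, with starved RA above starved WT for the first 3; Eci1, Pdhb and Cpt2 are highest in starved WT, and Mdh2 is lowest in starved RA.

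Of the cytosolic enzymes, Idh1, which makes NADPH and 2-oxoglutarate from isocitrate, fell in both genotypes. It read 35.2 and 38.2 in unstarved WT, 13.8 and 12.4 in starved WT, 33.8 and 33.6 in unstarved RA and 13.2 and 12.5 in starved RA. The starved samples overlapped between genotypes. The log2 change was -1.42 ± 0.0724 in WT (limma adjusted p = 8.67e-12) and -1.33 ± 0.0724 in RA (limma adjusted p = 4.79e-11), and the responses differed by 0.10 (95% interval -0.12 to 0.31, limma adjusted p = 0.455). Mdh1, the cytosolic malate dehydrogenase, went from 109 and 111 to 101 and 105 in WT and from 115 and 117 to 100 and 102 in RA. The WT call of Mdh1 was lost without WT normal replicate 1 (limma adjusted p = 0.0747), WT normal replicate 2 (0.153), WT starved replicate 1 (0.217) or either RA starved replicate (0.0506 without replicate 1 and 0.0507 without replicate 2, through the shared estimate of spread).

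The regulators among the members were both low. Ppargc1a, the coactivator PGC-1alpha that drives mitochondrial gene programs, read 1.96 and 1.65 in unstarved WT, 2.22 and 2.41 in starved WT, 1.38 and 1.61 in unstarved RA and 1.33 and 1.20 in starved RA. Starvation changed it by 0.24 in WT (95% interval -0.03 to 0.52, limma adjusted p = 0.0971) and -0.14 in RA (-0.41 to 0.14, limma adjusted p = 0.359). Ppara, the fatty acid receptor that turns on oxidation genes in liver, stayed under the filter. It read 0.217 and 0.202 in unstarved WT, 0.880 and 0.786 in starved WT, 0.368 and 0.310 in unstarved RA and 0.627 and 0.888 in starved RA. Its starved samples were above those in normal medium. Without the filter its log2 change was 0.60 ± 0.0883 in WT (limma adjusted p = 6.43e-04) and 0.39 ± 0.0883 in RA (limma adjusted p = 0.00920).

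In normal medium few members differed between the genotypes. RA differed from WT in 3 of 41 members, 2 higher and 1 lower, beside 9.63% of all genes (6.68% higher and 2.95% lower), with a median log2 difference of 0.05, and on that scale 0 members differed by 2-fold, beside 0.505% of all genes. When values were scaled to total reads instead, the split among members was 1 higher and 2 lower, and the share of higher genes among all genes called went from 69.4% to 40.5%. Pdk4 was higher in RA by 0.59 ± 0.109 (limma adjusted p = 0.00218), and kept its call in every alternative that used the threshold of 0.05. Decr1 was higher by 0.22 ± 0.0657 (limma adjusted p = 0.0458) and Pdk1 lower, at -0.23 ± 0.0709 (limma adjusted p = 0.0471), and both calls were fragile. That of Decr1 was lost without any 1 of 6 libraries, namely both replicates of WT normal, RA normal and RA starved (limma adjusted p = 0.0564 to 0.294). With every library kept, the Decr1 call was also lost with no filter (limma adjusted p = 0.130), median-ratio scaling (0.0645) or total-read scaling (0.107). DESeq2 lost it too (DESeq2 adjusted p = 0.0972). That of Pdk1 was lost without any 1 of 7 libraries, all but WT normal replicate 1 (limma adjusted p = 0.0579 to 0.411), and with no filter (0.181).

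Under starvation the genotypes stood apart in 27 members, 13 higher and 14 lower in RA, beside 62.9% of all genes (30.8% higher and 32.1% lower). The median log2 difference was -0.02, against -0.01 over all genes. Higher in RA were Pdk4, 3.44-fold (log2 difference 1.45 ± 0.109, limma adjusted p = 4.79e-09), Acadm (0.55 ± 0.0685, limma adjusted p = 2.63e-06) and Acaa2 (0.47 ± 0.0656, limma adjusted p = 1.02e-05), followed by Ogdh, Decr1, Etfb, Suclg1, Pdk3, Fh1, Pdha1, Dld, Slc25a20 and Sucla2. Lower in RA were Eci1 (-0.65 ± 0.0590, limma adjusted p = 5.80e-08), Ppargc1a (-0.55 ± 0.130, limma adjusted p = 0.00147), Pdhb (-0.47 ± 0.0423, limma adjusted p = 4.75e-08), Pdk1 (-0.44 ± 0.0709, limma adjusted p = 4.69e-05), Pcx (-0.41 ± 0.0417, limma adjusted p = 2.12e-07), Cs (-0.32 ± 0.0405, limma adjusted p = 3.01e-06) and Cpt1a (-0.31 ± 0.0540, limma adjusted p = 9.33e-05), with Mdh2, Cpt2, Suclg2, Idh2, Idh3b, Hadhb and Acadl. On the log2(value + 1) scale only Pdk4 differed by at least 2-fold, beside 6.7% of all genes.

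Leaving out 1 library ended 4 of these calls. Slc25a20 was lost without WT starved replicate 1 (limma adjusted p = 0.180), RA starved replicate 1 (0.146) or RA starved replicate 2 (0.0834). Sucla2 was lost without WT starved replicate 1 (0.298) or RA starved replicate 1 (0.185). Acadl was lost without WT starved replicate 2 (0.202), RA starved replicate 1 (0.126) or RA starved replicate 2 (0.0666), and Hadhb without RA starved replicate 1 (0.123). With every library kept, no filter also ended the calls of Sucla2 (limma adjusted p = 0.0920) and Acadl (0.123). DESeq2 ended those of Slc25a20 (DESeq2 adjusted p = 0.0919) and Sucla2 (0.0587).

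The test of the difference between the responses, RA less WT, was passed by 17 members, 7 higher and 10 lower in RA, beside 50.6% of all genes (24.5% higher and 26.1% lower). On the log2(value + 1) scale, 0 members had responses that differed by as much as 2-fold, beside 6.1% of all genes. Scaled to total reads, the split was 11 higher and 9 lower. The same scaling took the share of higher genes among all genes called from 48.4% to 58.1%. The contrasts share samples, so the groupings below describe values and do not support each other. The 7 with a higher response in RA, Fh1, Ogdh, Suclg1, Acadm, Acaa2, Pdha1 and Pdk4, all fell in WT. Of the 10 with a lower response in RA, 6 rose in WT (Idh3b, Suclg2, Cpt2, Eci1, Pcx and Pdhb), 2 fell in WT and fell further in RA (Cs and Idh2), and 2 had no call in WT (Mdh2 and Cpt1a). The call of Fh1 (0.19 ± 0.0748, limma adjusted p = 0.0476) was lost without any 1 of 6 libraries, all but WT normal replicate 1 and WT starved replicate 2 (limma adjusted p = 0.0650 to 0.184). With every library kept, the Fh1 call was also lost with no filter (limma adjusted p = 0.0824) and with DESeq2 (DESeq2 adjusted p = 0.0838). The call of Suclg1 (0.20 ± 0.0658, limma adjusted p = 0.0181) was lost without WT normal replicate 2 (0.0657), WT starved replicate 1 (0.0841) or RA starved replicate 2 (0.0558).

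**Figure D4:**
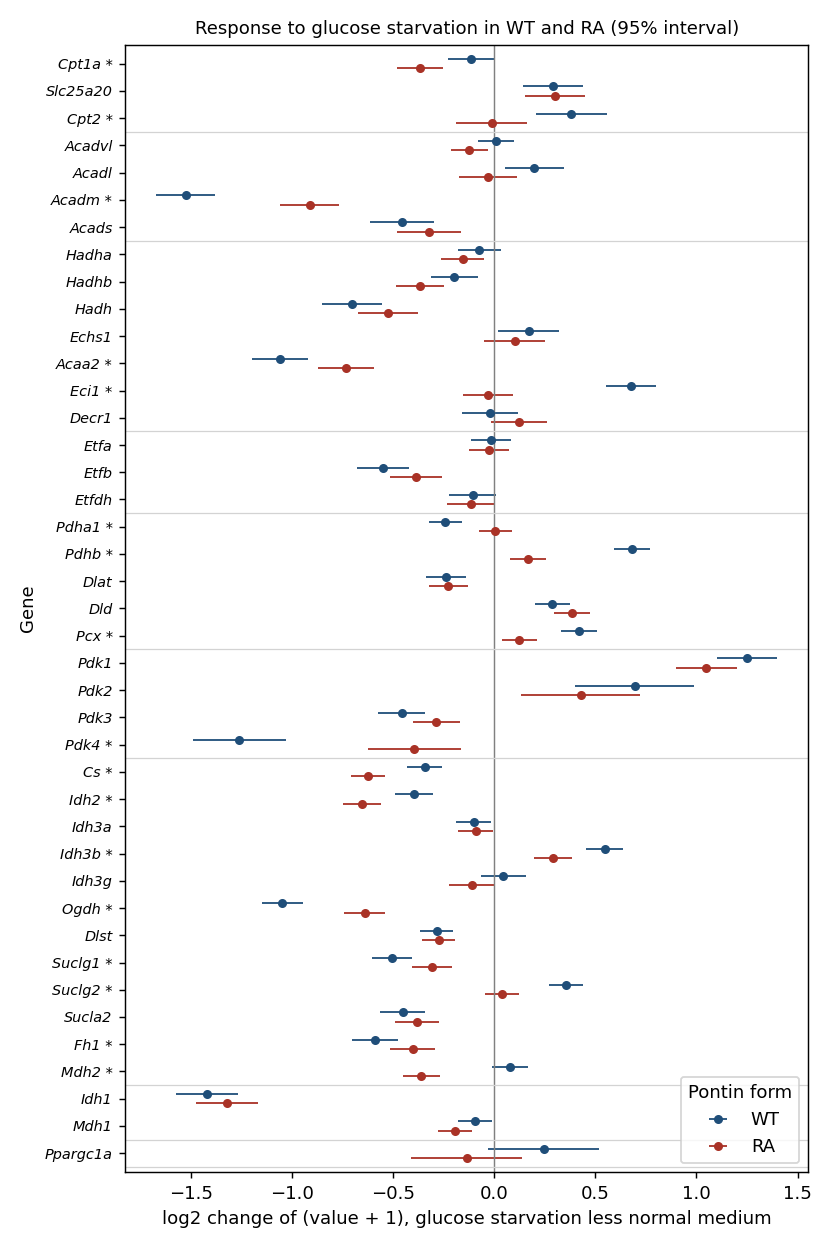
Log2 change of (value + 1) under glucose starvation in WT and RA for the 41 tested genes, grouped by role in the order of the heat map; points are estimates, bars their 95% intervals, and an asterisk marks the 17 genes whose responses differed. Points for RA lie nearer 0 than those for WT for Acadm, Pdk4, Ogdh, Eci1 and Pdhb, and farther from 0 for Cs, Idh2, Mdh2 and Cpt1a.

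Among 70 other genes of the same metabolism, 65 were tested. In WT 24 rose and 32 fell (86.2% called, beside 78.6% of all genes), and in RA 21 rose and 32 fell (81.5%, beside 68.7%). In normal medium 2 were higher in RA (3.08%, beside 9.63%), and under starvation 24 were higher and 16 lower (61.5%, beside 62.9%). The responses of 17 were higher and of 13 lower in RA (46.2%, beside 50.6%). The genes named next were chosen after their values were seen. Acot2, a mitochondrial thioesterase that frees fatty acids from CoA, read 3.20 and 3.69 in unstarved WT, against 64.1 and 60.8 in starved WT, and 3.82 and 4.34 and then 59.3 and 59.9 in RA. Among the genes that move amino acid carbon in and out of the cycle, Gpt2, the mitochondrial alanine transaminase, rose from 33.5 and 35.4 to 147 and 145 in WT and from 35.5 and 36.9 to 146 and 145 in RA. Pck2, the mitochondrial PEP carboxykinase, rose from 77.8 and 80.1 to 270.1 and 269.6 in WT and from 73.0 and 81.4 to 302 and 289.7 in RA. These 3 genes rose in both genotypes to values several times those in normal medium.

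Of the 4 tested acyl-CoA synthetases, which activate fatty acids, all 4 fell in WT and 3 in RA, where 39.2% and 33.7% of all genes fell, the exception being Acsl4, at 70.8 and 69.3 in unstarved RA and 71.8 and 72.0 in starved RA. Of the 7 tested peroxisomal genes, 3 rose and 4 fell in each genotype, beside 39.3% and 39.2% of all genes in WT and 35% and 33.7% in RA. Acad11, another acyl-CoA dehydrogenase, read 9.44 and 10.1 and then 21.2 and 22.0 in WT and 9.66 and 9.34 and then 9.13 and 12.4 in RA, with no call in RA. Ldhb, the lactate dehydrogenase subunit that favors pyruvate formation, read 18.6 and 17.3 and then 6.37 and 5.52 in WT and 18.5 and 20.5 and then 16.4 and 14.3 in RA, with the starved WT samples below all the others. In the remaining lists, again beside 39.3% of all genes higher and 39.2% lower, WT had 2 higher and 5 lower of 10 genes of pyruvate entry, 3 and 4 of 8 further TCA cycle enzymes, 5 and 6 of 12 genes of carbon entry and exit, 5 and 4 of 12 further genes of beta-oxidation, 5 and 2 of 8 regulators, and 1 and 3 of 4 genes of ketone body metabolism.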

How the data were processed

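RNA from MEFs was sequenced by the authors as polyA TruSeq v2 paired-end libraries on a HiSeq instrument and mapped to mm9 with TopHat2 2.0.9; bedtools and edgeR are named in the submitters' processing notes. The counter, annotation and handling of strand are not given in the sources used here. The authors deposited 1 table whose values are a signal, each gene's reads divided by a library size scaled per sample (CPM), with column sums of 965845 to 1029723. Columns named minus and plus were taken to mean normal medium and glucose starvation, as the study marks its conditions. Nonzero values were whole multiples of 1 read (100% within 0.1 read), so reads were recovered. Between 78.2% and 80.5% of counts from 1 to 9 were even, so both mates may be counted, and intervals cover these samples' spread only.

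Values were tested as log2(value + 1) with limma 3.58.1 (R 4.3.3): 4 group means fitted to the 8 samples, eBayes with trend, 2-sided tests and Benjamini-Hochberg adjustment per contrast, with calls at an adjusted p under 0.05. The test was first tried on simulated data. The planned unit was plain CPM; the same test was used. Contrasts were starvation in WT and in RA, RA minus WT in each medium, and the interaction. Alternatives were a pseudocount of 0.1, no filter, a minimum value of 5, other scalings, the replicate number as a block, each library left out, a threshold of 1e-05, and edgeR 4.0.16 and DESeq2 1.42.0 on the recovered reads. Members and lists were chosen with earlier results of these data known. All members are named, and some genes of the other lists are not reported here. Statistics of starvation in each genotype were given for the PDKs, Ppargc1a, Ppara, Cpt1a, Pcx, Cs and Pdha1. They were also given for the 3 highest and 3 lowest calls of each contrast. Not every other contrast of these genes is given. Exon lengths and overlaps came from GENCODE M21 (GRCm38), not the authors' build, and promoter windows from RefSeq (GRCm38.p6), which had 39 of the 42 members.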

Additional observations from a re-analysis of the deposited data

Results flagged for a closer look

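The starvation response differed between RA and WT, by the limma test of the difference itself, in 17 members. Each value is the log2 response in RA less that in WT. In the TCA cycle it was -0.28 for Cs, 0.19 for Fh1, -0.25 for Idh2, -0.25 for Idh3b, -0.44 for Mdh2, 0.41 for Ogdh, 0.20 for Suclg1 and -0.32 for Suclg2. In fatty acid oxidation it was 0.61 for Acadm, -0.25 for Cpt1a, -0.39 for Cpt2, 0.33 for Acaa2 and -0.71 for Eci1. In pyruvate use it was -0.29 for Pcx, 0.25 for Pdha1, -0.52 for Pdhb and 0.87 for Pdk4. Of all genes, 50.6% passed the same test.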

How the results depend on the processing

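Of 108 calls of a member in a contrast, 88 held in every alternative that used the threshold of 0.05 and tested the gene (27 of 32 for starvation in WT, 24 of 29 in RA, 1 of 3 and 23 of 27 for RA against WT in normal medium and under starvation, and 13 of 17 for the difference between responses), and 0 changed direction. In the same order, an adjusted p under 1e-05 left 21, 13, 0, 8 and 2 members. Of all 16232 genes tested, that threshold left 7399, 4961, 141, 3596 and 1764. Leaving out 1 library gave 28 to 32, 25 to 30, 1 to 3, 23 to 28 and 14 to 18 members. No filter on low values left 1 member for RA against WT in normal medium, beside 650 of the 31407 genes then tested. With the replicate block the member counts were 34, 32, 3, 28 and 18. The deviations of same-numbered samples correlated at -0.00764 to 0.157 over 6 pairs of groups. With 2 samples a group, these values cannot show whether same-numbered samples were handled together. edgeR gave 32, 29, 3, 27 and 17 members and DESeq2 31, 29, 2, 25 and 16. Scaled to total reads, 10 members were higher and 23 lower for starvation in WT. Of all genes tested, 5788 were then higher and 6915 lower, against 6387 and 6369 in the main test. Values not called whose sign turned were Pdha1 in RA under starvation (-0.00188 with median-ratio scaling, -0.00178 with DESeq2, and -0.00742 to 0.0171 with 1 library left out), Cpt2 in RA under starvation (-0.100 to 0.0743), RA against WT in normal medium for Cs (-0.0967 to 0.0148) and Pdha1 (-0.0497 to 0.0385), and Pdk2 under starvation (-0.0561 to 0.0980). Over the 97 pairs not called, 34 changed sign under some alternative. With 2 samples a group, a small difference can be missed, and the low genes Ppara, Ppargc1a and Pdk2 rest on few reads.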
